A study of Mus musculus with 21 samples.

Results

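Arginine can be made, broken down and turned into polyamines by a short chain of enzymes. Here 9 of their genes were followed by RNA-seq in mouse prostate cancer cells, wild-type or edited in the gene of IRE1α. They are Ass1 and Asl, which make arginine; Arg1 and Arg2, the arginases; Oat, which consumes ornithine; Odc1, Srm and Sms, which build polyamines; and Sat1, which starts their breakdown. The 9 were picked by gene name out of 45706 genes in the count table. Ass1 was listed because its response to the knockout differed between culture and tumours. Its knockout effects, and the difference between settings for all 9 genes, are therefore described here without a test. The other members were also chosen with earlier results of these data known, which their p-values do not take into account.

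The libraries came from Myc-CaP, a mouse prostate cancer cell line driven by a Myc transgene, and from tumours grown from it in FVB mice. In the knockout (KO) lines CRISPR-Cas9 with a single guide had been directed at Ern1, the gene of IRE1α, a sensor of protein folding stress in the endoplasmic reticulum; the wild-type (WT) cells were Myc-CaP without that edit, and no control guide is named in the labels. KO1, KO2 and KO3 cells gave 2 libraries each and WT cells gave 2, so there were 8 cell libraries. KO1, KO2 and KO3 tumours gave 3 libraries each and WT tumours gave 4, so there were 13 tumour libraries. All KO lines shared the guide, all groups shared the Myc transgene, and the labels give no age, sex or treatment of the mice. WT was a single line, so differences between KO and WT and differences between lines cannot be told apart, and each p-value speaks only to how much these libraries vary.

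Cell libraries held 18105510 to 25068239 counts and tumour libraries 15994265 to 27497767. Of the prostate epithelial markers reported here, Fkbp5, Krt8 and Hoxb13 were present in cells, Hoxb13 at means of 31.4 CPM in KO cells and 34.5 CPM in WT cells, whereas Epcam had 0 counts in every cell library and Krt18 and Cdh1 were under 1 CPM on average. Tumours also held host transcripts: the leukocyte gene Ptprc lay between 12.1 and 45.6 CPM in KO tumours and between 10.1 and 35.3 CPM in WT tumours, and between 0 and 0.0381 CPM in KO cells with no count in WT cells. In such bulk samples fewer cells of a type and less RNA per cell cannot be told apart. Among WT tumours, replicate 1 stood apart in summed neutrophil, erythroid and skeletal muscle markers (318, 1298 and 4784 CPM), and in replicate 4 the gene Yam1, at a ribosomal RNA locus, took 24.0% of counts, against 6.16% to 8.47% in the other tumours.

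Arginine is made from citrulline in 2 steps: argininosuccinate synthase (Ass1) joins citrulline to aspartate, and argininosuccinate lyase (Asl) splits the product. In liver these enzymes serve the urea cycle, which arginase closes by cutting arginine into urea and ornithine. In other tissues they recycle citrulline, and many human tumours silence ASS1 and then depend on arginine from outside. Ornithine feeds either ornithine aminotransferase (Oat), which leads towards proline and glutamate, or ornithine decarboxylase (Odc1), the entry to the polyamines putrescine, spermidine and spermine. The prostate is known for its large output of polyamines, and Odc1 is a classical target of MYC.

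The promoters of Ass1 and Oat are shown because both genes were low in KO cells, and only the Ass1 sequence holds the E-box CACGTG, a palindrome bound by MYC and other helix-loop-helix factors. Each is the stretch of 250 bases before the RefSeq start, in GRCm38.p6, written 5′ to 3′ on the gene's strand, with the E-box in capitals: chr2:31470020-31470269 on the plus strand for Ass1 and chr7:132576399-132576648 on the minus strand for Oat.
Ass1: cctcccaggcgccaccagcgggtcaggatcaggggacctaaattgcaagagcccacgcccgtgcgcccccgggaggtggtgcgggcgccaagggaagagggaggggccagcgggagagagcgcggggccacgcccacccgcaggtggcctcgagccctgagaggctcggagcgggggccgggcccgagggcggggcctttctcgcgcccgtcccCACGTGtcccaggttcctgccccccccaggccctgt
Oat: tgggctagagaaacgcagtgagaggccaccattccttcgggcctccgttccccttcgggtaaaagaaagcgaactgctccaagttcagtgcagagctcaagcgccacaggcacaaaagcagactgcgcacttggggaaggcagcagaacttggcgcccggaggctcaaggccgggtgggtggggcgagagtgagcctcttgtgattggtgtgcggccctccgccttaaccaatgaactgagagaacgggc
The first base of the E-box in Ass1 lies 36 bases before the RefSeq start; the GENCODE M21 gene begins 63 bases further upstream than RefSeq, so by that annotation the E-box is within the gene. RefSeq windows of 300 bases, from 250 before to 50 after the start, were at hand for Ass1, Oat, Odc1, Sms and Sat1 (6 windows, with 2 for Sms). The E-box occurred in the Ass1 window and in 1 Sms window, and in 7.15% of all 32851 windows. Both strands were searched as well for a UPR element (TGACGTGG, in 0.676% of all windows), the ER stress element (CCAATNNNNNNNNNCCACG, in 0.119%) and an amino acid response element (TGATGNAA, in 3.97%), and these letters were in none of the member windows. A match describes the letters only.

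**Figure D1:**
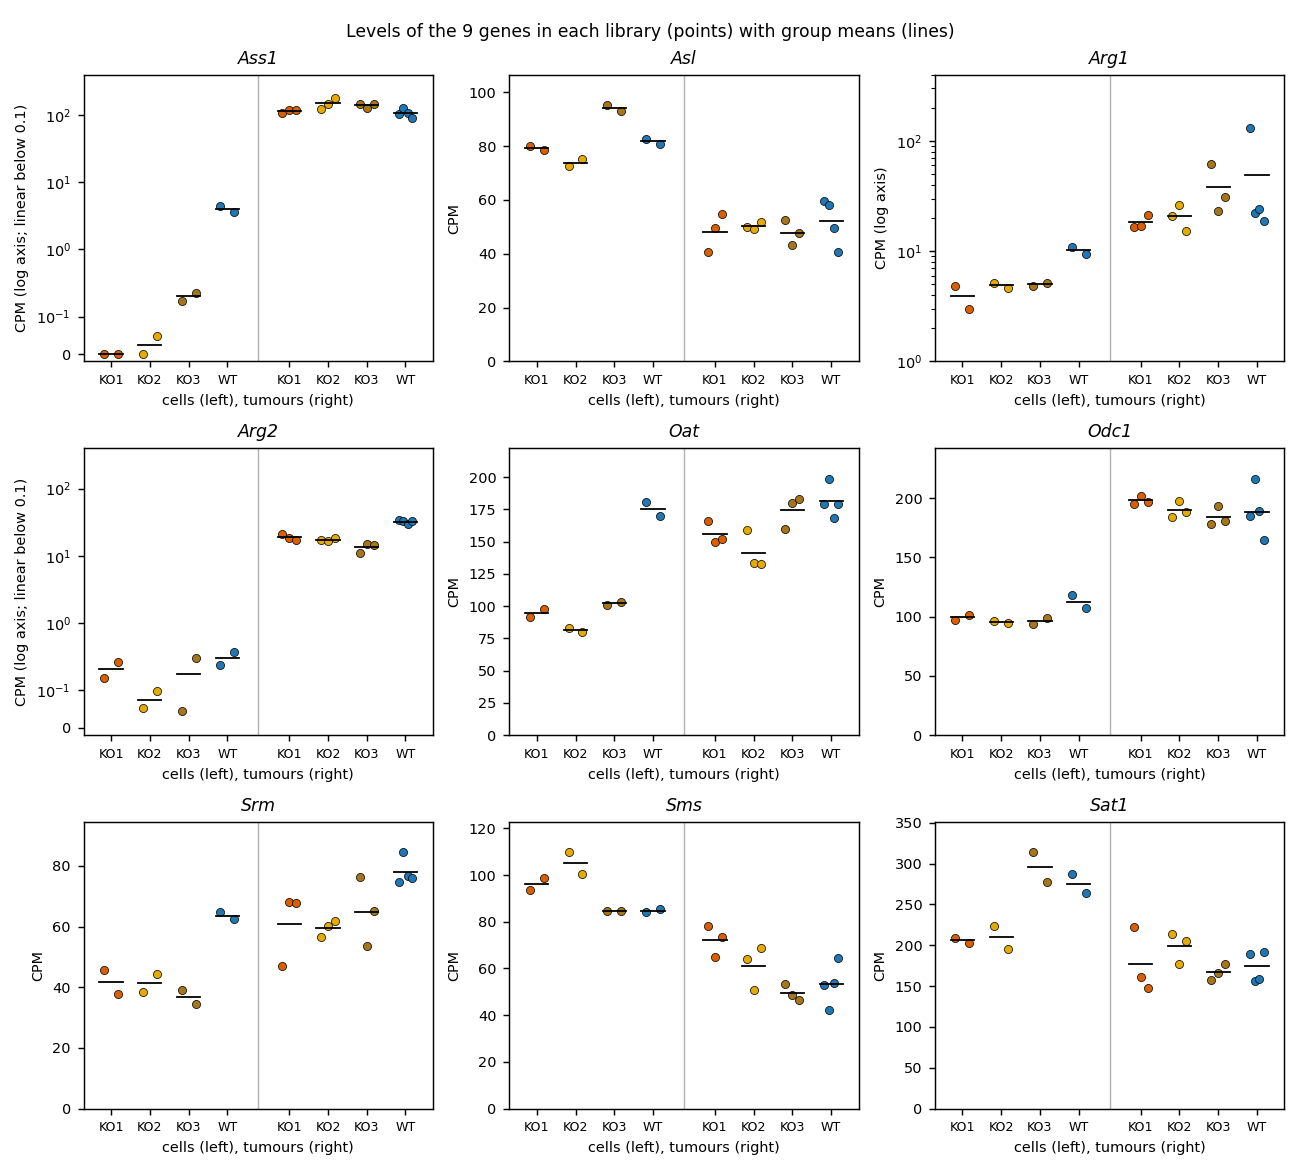
Levels of the 9 genes in all 21 libraries, in CPM, by line in cells (left) and in tumours (right), with log axes for Ass1, Arg1 and Arg2; each point is a library and each line a group mean. Ass1 is at or near 0 in KO cells, low in WT cells and above 89 CPM in every tumour, and Arg2 is low in all cell libraries and higher in WT tumours than in any KO tumour.

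Ass1 was nearly silent in KO cells, low in WT cells and abundant in all tumours. The gene lies on chromosome 2 at 31470207 to 31520672, plus strand (ENSMUSG00000076441, GRCm38). In cells it stood at 0 and 0 CPM in KO1, at 0 and 0.0487 CPM in KO2 and at 0.173 and 0.229 CPM in KO3, against 4.36 and 3.62 CPM in WT. Every KO library was thus below both WT libraries, and the KO3 libraries were the highest of the KO libraries. In counts these are 0 in KO1, 1 in KO2 and 10 in KO3, against 162 in WT, over 2 libraries each. Where no count was seen, a floor of 3 counts over both KO1 libraries was used, with the 162 WT counts taken as exact. On that floor Ass1 was at least 53.4-fold lower in KO1 than in WT, without TMM scaling. By the same totals WT cells held 17.8 times as much as KO3 cells (exact 95% interval 9.41 to 37.7) and 139.6 times as much as KO2 cells, where a single count leaves a wide interval, 24.7 to 5546. These intervals cover counting error only, and the floor leaves out the counting error of WT.

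In tumours the same gene was at a level well above that of any cell library. Ass1 stood at 108, 119.9 and 119 CPM in KO1 tumours, at 121, 147 and 179 CPM in KO2 tumours and at 148, 128 and 147 CPM in KO3 tumours. In WT tumours it was at 104, 128, 107 and 89.6 CPM. KO1 tumours lay inside the WT range, and 5 of the 9 KO tumours, all of KO2 or KO3, lay above the highest WT tumour, so the genotypes overlapped. The mean in WT tumours was 26.8 times that in WT cells, with a fitted log2 difference of 4.76 ± 0.20 (SE), and the mean in KO3 tumours was 703 times that in KO3 cells; no ratio is given for KO1 and KO2, with 0 and 1 counts in cells.

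Ordered by mean, Ass1 was highest in KO2 tumours (149 ± 29.1 CPM, SD, n = 3), followed by KO3 tumours (141 ± 11.2, n = 3), KO1 tumours (116 ± 6.54, n = 3), WT tumours (107 ± 15.7, n = 4), WT cells (3.99 ± 0.522, n = 2), KO3 cells (0.201 ± 0.0390, n = 2), KO2 cells (0.0244 ± 0.0345, n = 2) and KO1 cells at 0. Neighbouring tumour groups overlapped, as did KO1 and KO2 cells, whereas WT cells lay apart from the groups on either side. In log2 terms the fitted KO effect was -5.54 ± 0.67 (SE) in cells and 0.33 ± 0.14 (SE) in tumours. The effect in tumours minus that in cells was 5.87 ± 0.46 (SE) in the joint fit of all 21 libraries, and 5.39, 5.45 and 8.12 without line KO1, KO2 and KO3. That contrast had placed Ass1 on the list, so nothing is read from it; 0.962% of 15173 genes passed in it. The fitted value in cells depends on the prior count, since several KO libraries were at 0.

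Among the KO lines in cells, with 0 to 6 counts of Ass1 in each library, the values are given without a test. In tumours the lines did not pass (adjusted p = 0.252 by edgeR's quasi-likelihood F test with Benjamini-Hochberg adjustment, unadjusted 0.0412). In 14 of the 21 libraries the estimated count of Ass1 was not whole, as happens where reads are divided between genes; this also held for Odc1 in 20 libraries and Sms in 19, and for no other member.

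Asl, the enzyme that follows Ass1, showed no such pattern. It lies on chromosome 5 at 130011258 to 130029247, minus strand. Cells held 80.2 and 78.7 CPM in KO1, 72.6 and 75.2 CPM in KO2 and 95.2 and 93.1 CPM in KO3, against 82.8 and 80.9 CPM in WT. KO3 lay above WT and both other KO lines below it, and the lines differed (adjusted p = 0.00578 by edgeR). Without KO3 replicate 1 that adjusted p was 0.0566, and on counts scaled for transcript length it was 0.0668. The pooled KO effect was 0.01 ± 0.11 (SE) on the log2 scale in cells (adjusted p = 0.952 by edgeR) and -0.10 ± 0.10 (SE) in tumours (adjusted p = 0.5998 by edgeR), with values from 40.6 to 54.7 CPM in KO tumours (median 49.5) and 59.7, 58.2, 49.6 and 40.8 CPM in WT tumours. Asl was lower in WT tumours than in WT cells, by a log2 fold change of -0.64 ± 0.15 (SE, adjusted p = 0.00997 by edgeR), the opposite direction to Ass1; without WT cells replicate 1 or 2 that adjusted p was 0.0983 and 0.0864.

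**Figure D2:**
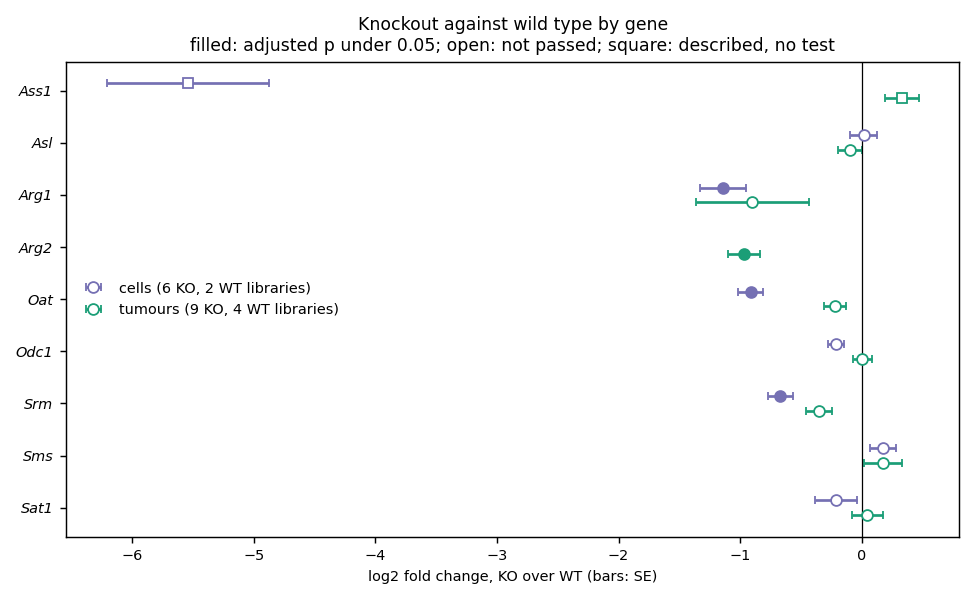
Log2 fold change of KO over WT for each gene, in cells and in tumours, with bars of 1 SE; filled points passed an adjusted p of 0.05 by edgeR and open points did not or, for Ass1, were not tested. Arg1, Oat and Srm fell in cells by 1.14, 0.92 and 0.67 and Arg2 fell in tumours by 0.97, while Ass1 stands at -5.54 in cells and 0.33 in tumours.

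The cytosolic arginase Arg1 fell in KO cells, and the mitochondrial arginase Arg2 fell in KO tumours. Whether these effects differed between cells and tumours was not tested. Arg1 lies on chromosome 10 at 24915221 to 24927484, minus strand, and is known from liver and from alternatively activated macrophages. In cells it was at 4.82 and 2.98 CPM in KO1, 5.13 and 4.68 CPM in KO2 and 4.85 and 5.18 CPM in KO3, against 10.9 and 9.44 CPM in WT. All 6 KO libraries lay below both WT libraries. The log2 fold change was -1.14 ± 0.19 (SE, adjusted p = 0.00429 by edgeR), and the adjusted p was 0.0881 without WT cells replicate 1 and 0.178 with libraries summed per line. KO lines did not pass a difference among them (adjusted p = 0.273 by edgeR), although without KO1 cells replicate 1 the adjusted p was 0.0378.

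In tumours Arg1 turned on single libraries. It was at 16.6, 17.0 and 21.1 CPM in KO1, 20.7, 26.2 and 15.1 CPM in KO2 and 62.0, 23.0 and 30.7 CPM in KO3, against 131, 22.0, 24.3 and 19.0 CPM in WT. WT replicate 1 and KO3 replicate 1 stood far above the rest, and without them the genotypes occupied much the same range. The log2 fold change of -0.90 ± 0.46 (SE) did not pass (adjusted p = 0.299 by edgeR), and without WT replicate 1 it was 0.20. In that WT tumour the summed level of 8 neutrophil markers was 318 CPM, against 5.25, 8.002 and 8.41 CPM in the other WT tumours, and its summed level of 10 macrophage markers was 528 CPM, against 169 to 269 CPM. In KO3 replicate 1 the corresponding sums were 6.32 and 303 CPM, within the ranges of 5.03 to 11.6 and 277 to 704 CPM over all KO tumours, whose macrophage sums were highest in KO1 (492.97 to 704 CPM). In cells the macrophage sum was 1.56 to 2.42 CPM in KO and 2.47 to 2.62 CPM in WT, with at most 3 of 10 markers detected. WT replicate 1 also had its group's highest adipocyte, fibroblast, endothelial, erythroid and skeletal muscle marker sums (729, 2581, 163, 1298 and 4784 CPM). The part of host cells in the Arg1 values of tumours was not tested.

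Arg2 was almost absent from cells and present in every tumour, at lower levels in KO tumours than in WT tumours. It lies on chromosome 12 at 79130777 to 79156301, plus strand. KO tumours held 20.9, 18.1 and 17.3 CPM in KO1, 16.9, 16.7 and 18.6 CPM in KO2 and 10.9, 14.9 and 14.4 CPM in KO3, against 33.5, 32.6, 29.4 and 33.0 CPM in WT tumours. All 9 KO tumours lay below all 4 WT tumours, which was true of 1.90% of the 14200 genes tested. The means were 16.5 ± 2.88 CPM in KO (SD, n = 9) and 32.1 ± 1.85 CPM in WT (SD, n = 4), which gave a fitted log2 fold change of -0.97 ± 0.13 (SE, adjusted p = 0.00202 by edgeR). Lower in each line, it stood at -0.82, -0.87 and -1.29 relative to WT in KO1, KO2 and KO3, and the lines themselves did not pass a difference (adjusted p = 0.116, unadjusted 0.00783, by edgeR), although DESeq2 gave an adjusted p of 0.0345.

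Without WT replicate 1, the tumour that stood apart, the Arg2 log2 fold change was -0.99. It was -0.93 without WT replicates 1 and 4, an alternative chosen after seeing the data. Host markers also moved in this comparison. By edgeR 3 of 6 neutrophil markers tested (S100a9, Il1b and Clec4e) were lower in KO tumours, beside 2.37% of all genes. The neutrophil sum was 318 CPM in WT replicate 1, 5.25 to 8.41 CPM in the other WT tumours and 5.03 to 11.6 CPM in KO tumours. Of 5 T and NK cell markers 2 (Gzmb and Klrk1) were higher, beside 1.28% of all genes. Of 5 erythroid markers 1 (Hba-a2) was lower, but cultured cells also held it, at 36.3 CPM in KO cells and 89.9 CPM in WT cells. Summed T and NK cell markers were between 2.93 and 9.61 CPM in KO tumours and between 2.27 and 3.47 CPM in WT tumours. Of 10 macrophage markers 0 passed. The part of these cells in the Arg2 values was not tested. Summed per line, with a single WT unit, it was -0.95 with an adjusted p of 0.625 by edgeR, and in that fit no gene passed. In cells Arg2 had 1 to 8 counts in each KO library and 5 and 7 in WT, too few for a test, also of WT tumours against WT cells. The mean was 32.1 CPM in WT tumours and 0.301 CPM in WT cells. The end of Arg2 shares 285 of its 1428 exonic bases with Vti1b on the opposite strand, and whether the counting used strand is not given. Vti1b was at 40.6 ± 3.64 CPM in KO cells (SD, n = 6) and 42.4 ± 3.14 CPM in WT cells (SD, n = 2), where Arg2 was near 0, and in tumours its log2 fold change was -0.21 ± 0.15 (SE, adjusted p = 0.447 by edgeR).

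**Figure D3:**
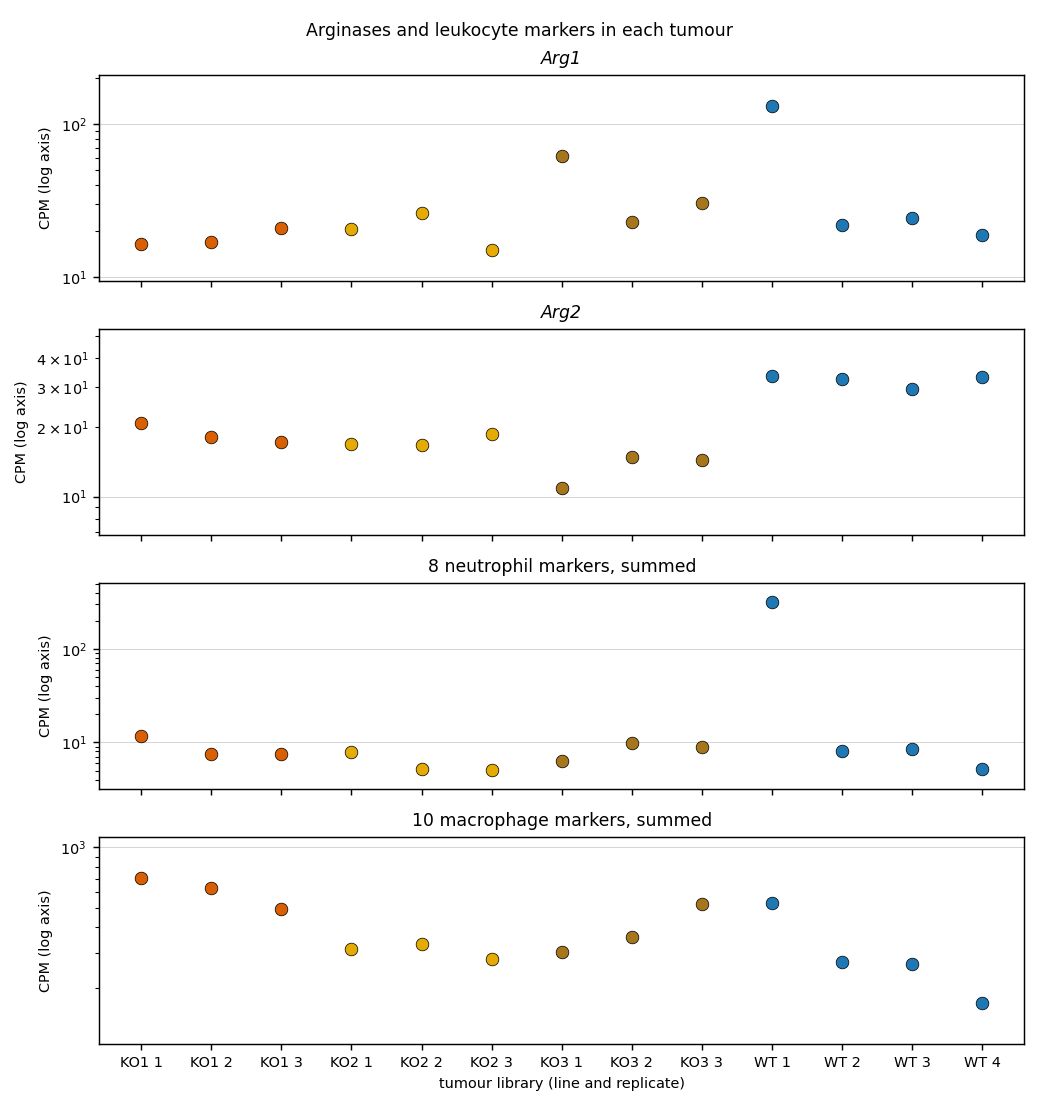
Arg1, Arg2 and the summed levels of 8 neutrophil and 10 macrophage markers in each of the 13 tumours, in CPM on log axes; each point is a tumour, coloured by line. The WT tumour with 131 CPM of Arg1 is also the tumour with 318 CPM of neutrophil markers, and Arg2 is between 29.4 and 33.5 CPM in all 4 WT tumours.

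Oat, the mitochondrial enzyme that turns ornithine into glutamate semialdehyde, had lower levels in KO cells. It lies on chromosome 7 at 132557478 to 132576398, minus strand, inside the span of Fgfr2, with which it shares 0 exonic bases. Libraries gave 91.5 and 97.8 CPM in KO1 cells, 82.8 and 79.5 CPM in KO2 cells and 100.9 and 103 CPM in KO3 cells, against 180.3 and 169.6 CPM in WT cells. The groups were far apart relative to their spread, with a log2 fold change of -0.92 ± 0.10 (SE, adjusted p = 0.000447 by edgeR), and it passed with each WT cell library left out in turn. Summing the counts of each line gave an adjusted p of 0.124 by edgeR. Fgfr2 had a log2 fold change of -0.32 ± 0.23 in KO cells (SE, adjusted p = 0.368 by edgeR). Oat also differed among the KO lines in cells (adjusted p = 0.0109 by edgeR), lowest in KO2 and highest in KO3; without KO2 replicate 2 the adjusted p was 0.0513 and without KO3 replicate 2 it was 0.0631.

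In tumours the genotypes overlapped for Oat. KO tumours were at 166, 149 and 152 CPM in KO1, 159, 133 and 132 CPM in KO2 and 160.1, 179.7 and 183 CPM in KO3, against 179, 199, 168 and 179 CPM in WT tumours. Although 7 of 9 KO tumours were below the lowest WT tumour, the log2 fold change of -0.22 ± 0.09 (SE) did not pass (adjusted p = 0.204, unadjusted 0.0304, by edgeR). WT tumours and WT cells were close, at 181 ± 12.6 CPM (SD, n = 4) and 175 ± 7.53 CPM (SD, n = 2), with a fitted log2 fold change of 0.07 ± 0.11 (SE, adjusted p = 0.624 by edgeR). The KO effect in tumours minus that in cells was 0.71 ± 0.15 (SE) and was not tested.

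Of the polyamine synthesis genes Srm fell in KO cells, while Odc1 and Sms did not pass. Srm encodes spermidine synthase, which makes spermidine from putrescine, and lies on chromosome 4 at 148591503 to 148594993, plus strand. In cells it was at 45.5 and 37.7 CPM in KO1, 38.5 and 44.3 CPM in KO2 and 39.1 and 34.5 CPM in KO3, against 64.7 and 62.4 CPM in WT. Every KO library was below both WT libraries, with a log2 fold change of -0.67 ± 0.10 (SE, adjusted p = 0.00273 by edgeR), and the adjusted p was 0.0547 without WT cells replicate 1 and 0.135 with libraries summed per line. No difference among the KO lines passed (adjusted p = 0.333 by edgeR).

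Srm in tumours pointed the same way without passing. KO tumours were at 47.0, 68.0 and 67.7 CPM in KO1, 56.7, 60.1 and 62.0 CPM in KO2 and 76.3, 53.5 and 65.1 CPM in KO3, against 74.6, 84.5, 76.8 and 75.9 CPM in WT. Only KO3 replicate 1 reached the WT range. The log2 fold change was -0.35 ± 0.11 (SE, adjusted p = 0.0794 by edgeR); DESeq2 gave an adjusted p of 0.0324, and edgeR gave 0.0433 without KO3 replicate 1. The level was 0.31 ± 0.10 higher on the log2 scale (SE) in WT tumours than in WT cells (adjusted p = 0.0377 by edgeR), a call lost under several alternatives, with adjusted p of 0.148 and 0.191 without WT cells replicate 1 and 2 and 0.0506 without WT tumour replicate 4.

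Odc1, the ornithine decarboxylase, differed with the setting far more than with the genotype. It lies on chromosome 12 at 17544794 to 17551505, plus strand. Levels were 97.3 and 101.5 CPM in KO1 cells, 96.4 and 94.9 CPM in KO2 cells and 93.8 and 98.6 CPM in KO3 cells, against 118 and 107 CPM in WT cells. All KO libraries were below both WT libraries, by a small step: the log2 fold change of -0.21 ± 0.07 (SE) missed the threshold (adjusted p = 0.0605 by edgeR), and DESeq2 gave an adjusted p of 0.0133. In tumours it ranged from 178 to 202 CPM in KO (median 193) and was at 185, 216, 189 and 164 CPM in WT, a log2 fold change of 0.00 ± 0.08 (SE, adjusted p = 0.993 by edgeR) whose sign turned under other scalings. WT tumours exceeded WT cells by 0.76 ± 0.13 (SE) on the log2 scale (adjusted p = 0.00347 by edgeR; 0.0522 without WT cells replicate 2).

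Sms, spermine synthase, and Sat1, the acetyltransferase that marks spermidine and spermine for oxidation and export, are both X-linked, at 157443855 to 157492287 and 155213132 to 155216449, minus strand. Neither passed between KO and WT in cells or in tumours, and both differed among KO lines in cells. Sms was at 93.8 and 98.6 CPM in KO1 cells, 109.7 and 100.6 CPM in KO2 cells and 84.4 and 84.8 CPM in KO3 cells, against 84.0 and 85.4 CPM in WT cells. Its KO3 level thus matched WT while KO1 and KO2 lay above it. The difference among lines had an adjusted p of 0.0161 by edgeR, and 0.0939 and 0.0981 without KO3 replicate 1 and 2. The KO effect on the log2 scale was 0.17 ± 0.11 (SE, adjusted p = 0.303 by edgeR) in cells and 0.17 ± 0.16 (SE, adjusted p = 0.564 by edgeR) in tumours.

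Sat1 gave the smallest p among the members for the lines in cells. It was at 209 and 203 CPM in KO1, 224 and 196 CPM in KO2 and 314 and 278 CPM in KO3, against 287 and 264 CPM in WT. KO1 and KO2 lay below WT, and KO3 overlapped it, with an adjusted p for the lines of 0.00106 by edgeR that stayed under the threshold with each cell library left out in turn. The pooled KO effect of -0.21 ± 0.17 (SE) on the log2 scale did not pass (adjusted p = 0.431 by edgeR); without line KO3 it was -0.40, with an adjusted p of 0.00261. In tumours the lines overlapped, at 222, 162 and 147 CPM in KO1, 214, 177 and 206 CPM in KO2 and 157, 166 and 177 CPM in KO3, against 189, 156, 159 and 192 CPM in WT (KO over WT 0.04 ± 0.13 on the log2 scale, SE, adjusted p = 0.872 by edgeR). Sms and Sat1 were both lower in WT tumours than in WT cells, by log2 fold changes of -0.65 ± 0.17 (SE, adjusted p = 0.0179 by edgeR) and -0.64 ± 0.13 (SE, adjusted p = 0.00616 by edgeR). Without WT cells replicate 1 these adjusted p were 0.107 and 0.0811, and without replicate 2 that of Sms was 0.119.

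**Figure D4:**
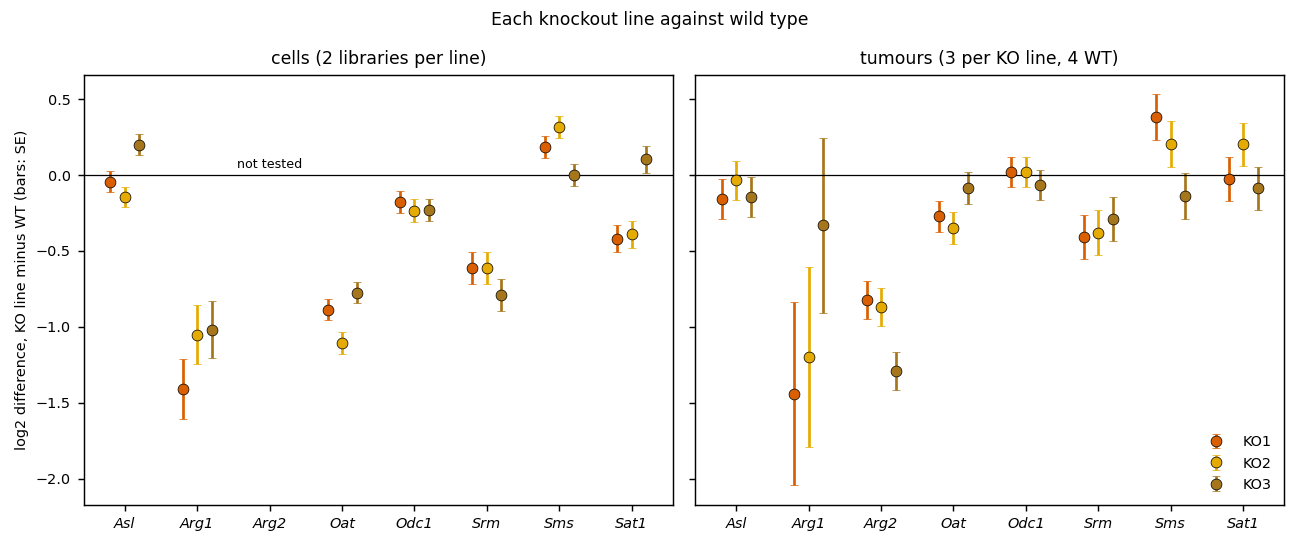
Log2 level of each KO line relative to WT, in cells and in tumours, for the members other than Ass1; Arg2 in cells was not tested; each point is a line and each bar is 1 SE. In cells KO3 is the highest KO line for Asl, Oat and Sat1 and the lowest for Sms, and in tumours no gene passed a difference among the lines.

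Counted together, 3 of the 7 members given a test fell in KO cells (Arg1, Oat and Srm) and none rose, beside 9.76% of 12254 genes called lower, 4.99% called higher and 14.8% in all. Their median log2 fold change was -0.21, against 0.02 over all genes. Of the 7 tested members, Arg1, Oat, Srm and Odc1 had all KO cell libraries below both WT libraries, beside 19.3% of all genes. Ass1 did so too, but is left out here because its knockout effect placed it on the list. In KO tumours 1 of 8 fell (Arg2) and none rose, beside 2.37% called lower, 1.28% called higher and 3.65% in all, and the median was -0.16 against 0.00. In both comparisons the members' choice was made with these values known. The difference between the settings, described only, was 0.34 ± 0.17 for Srm, 0.27 ± 0.21 for Sat1, 0.23 ± 0.11 for Odc1, 0.22 ± 0.73 for Arg1, 0.02 ± 0.22 for Sms, -0.09 ± 0.71 for Arg2 and -0.11 ± 0.17 for Asl (log2, SE). For Arg1 it was 1.39 without WT tumour replicate 1, and with each library left out in turn it was between -0.064 and 1.39. For Arg2, with few counts in cells, it was between -0.43 and 0.23 in the same way.

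Among the KO lines 4 of the 7 members given a test differed in cells (Asl, Oat, Sms and Sat1), beside 30.3% of 12254 genes. In tumours 0 of 9 did by edgeR, beside 2.95% of 14483 genes, although Arg2, Sms and Ass1 had an unadjusted p under 0.05 and DESeq2 called 1 (Arg2). Between WT tumours and WT cells 5 of the 7 members given a test passed, 2 higher (Odc1 and Srm) and 3 lower (Asl, Sms and Sat1), beside 51.0% of 14031 genes (29.8% higher and 21.3% lower). Arg1, at 2.27 ± 0.90 (SE), did not pass (adjusted p = 0.0732 by edgeR), and without WT tumour replicate 1 it was 1.14 with an adjusted p of 0.000789. The count was 1 without WT cells replicate 1 (Odc1) and 1 without replicate 2 (Sat1). These tumours also contained host cells, whose part in the difference was not tested.

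Of the surrounding pathways, 84 genes on 9 lists were in the files. In KO cells 66 were tested, of which 2 rose and 3 fell, beside 4.99% and 9.76% of all genes. Ddah2, which degrades methylated arginines that inhibit nitric oxide synthase, fell to 5.75 ± 0.802 CPM in KO cells, against 12.6 ± 1.20 CPM in WT cells (SD, n = 6 and 2; adjusted p = 0.00107 by edgeR). Glul, glutamine synthetase, was at 482 ± 39.7 CPM in KO cells and 671 ± 21.8 CPM in WT cells (adjusted p = 0.00975 by edgeR), and Adi1, of methylthioadenosine salvage, at 60.2 ± 5.96 CPM and 78.5 ± 2.21 CPM (adjusted p = 0.0327 by edgeR). Gch1, which starts synthesis of the nitric oxide synthase cofactor tetrahydrobiopterin, rose to 7.88 ± 1.995 CPM in KO cells, against 4.05 ± 0.167 CPM in WT cells (adjusted p = 0.0429 by edgeR), and the arginine methyltransferase Carm1 to 91.96 ± 2.88 CPM, against 75.4 ± 0.0682 CPM (adjusted p = 0.0187 by edgeR). The median over the 66 was 0.07 on the log2 scale, against 0.02 over all genes. The urea cycle, arginine transport, creatine, polyamine regulation and hypusine lists had no member past the threshold.

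In KO tumours 71 were tested and 1 passed, beside 3.65% of all genes: it was Gatm, the enzyme that takes the amidino group of arginine for creatine synthesis. It averaged 63.1 ± 16.6 CPM in KO tumours and 36.1 ± 3.20 CPM in WT tumours (SD, n = 9 and 4), with a log2 fold change of 0.79 ± 0.18 (SE, adjusted p = 0.0293 by edgeR). Gatm averaged 0 CPM in KO cells and in WT cells. It differed among the KO tumours (adjusted p = 0.028 by edgeR), where KO1, KO2 and KO3 averaged 82.6, 48.0 and 58.7 CPM. Summed macrophage markers were likewise at most 2.62 CPM in cells. They were at 492.97 to 704 CPM in KO1 tumours, 277 to 332 CPM in KO2 tumours and 303 to 525.7 CPM in KO3 tumours, against 169 to 528 CPM in WT tumours. Summed fibroblast markers were also highest in KO1 among the KO tumours, at 1979 to 2975 CPM, against 687 to 946 CPM in KO2 and 711 to 1577 CPM in KO3. They were at 445 to 2581 CPM in WT tumours. Endothelial sums were not highest in KO1, at 84.8 to 115 CPM, against 108 to 126 CPM in KO3. The highest skeletal muscle, T and NK cell and neutrophil sums of KO tumours were in KO1 (1107, 9.61 and 11.6 CPM). The highest erythroid and adipocyte sums of KO tumours were in KO3 (263 and 427 CPM). The part of these cells in the Gatm values was not tested. Among the KO tumours, where 2.95% of all genes differed, so did Cps1, carbamoyl phosphate synthetase, which feeds the urea cycle, whose KO1, KO2 and KO3 tumours averaged 15.6, 105 and 69.4 CPM and WT tumours 62.2 CPM (adjusted p = 0.00166 by edgeR). Cultured KO1, KO2 and KO3 cells held 138, 247 and 162 CPM of Cps1 and WT cells 252 CPM, and differed among the lines as well (adjusted p = 0.000147 by edgeR).

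Differences among KO lines in cells were found for 31 of the 66 pathway genes tested, beside 30.3% of all genes. The 3 with the smallest p on the proline and glutamate list were lowest in KO3: Aldh18a1, which makes the proline and ornithine precursor, averaged 159.9, 168 and 84.3 CPM across KO1, KO2 and KO3 against 116 CPM in WT, Gpt2 at 140.2, 165 and 71.9 against 80.3 CPM, and Asns at 416, 431 and 216 against 229 CPM. On the proline and glutamate list 9 of 13 genes tested passed, beside the same 30.3%. The arginine transporter Slc7a1 averaged 373, 373 and 230.03 CPM across KO1, KO2 and KO3 against 266 CPM in WT, and Slc3a2, the heavy chain of amino acid transporters, at 504, 507 and 252 against 360.04 CPM. Asns and Slc3a2 are known ATF4 targets. Both had p-values for the lines far under the threshold (adjusted p = 3.21e-06 and 1.33e-05 by edgeR), as did Slc7a1 (2.46e-05).

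Amd1 and Mat2a, which act in supplying the aminopropyl groups of polyamines, were highest in KO3 among the KO lines. Amd1, the decarboxylase of S-adenosylmethionine, averaged 117, 116 and 156 CPM across KO1, KO2 and KO3 against 145 CPM in WT (adjusted p = 0.00213 by edgeR), and Mat2a, which makes S-adenosylmethionine, at 149, 151 and 233 against 187 CPM (adjusted p = 4.88e-05 by edgeR). Amd2 followed Amd1, at 12.8, 12.6 and 17.6 CPM against 15.97 CPM, but is a near-identical copy, and how reads were split between the pair is uncertain. Of 12 genes of the methionine cycle and salvage list 10 were tested and 7 differed, again beside 30.3% of all genes. Mtr, methionine synthase, was highest in KO1, at 24.6, 13.6 and 11.3 CPM against 9.52 CPM in WT.

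In WT tumours against WT cells 14 of 72 pathway genes tested were called higher and 17 lower, beside 29.8% and 21.3% of all genes. Of the 14, 7 had under 20 counts over both WT cell libraries and were let through the filter by their tumour level, so nothing is read from their calls. Lower were the proline synthesis genes Pycr1, at -2.33 ± 0.21, and Aldh18a1, at -1.35 ± 0.14 on the log2 scale (SE), Cps1 at -1.997 ± 0.25 and the creatine transporter Slc6a8 at -1.40 ± 0.10. Higher, among genes well counted in both, were Mtr at 1.88 ± 0.19 and the aspartate-glutamate carrier Slc25a13 at 1.15 ± 0.29, and all of these passed the threshold by edgeR. The median over the 72 genes was -0.05, against 0.13 over all genes.

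By Pearson correlation of mean log2 CPM over the 8 groups of line and setting, the genes with a pattern most like that of Ass1 included Prom2 (r = 0.997), Gpd1 (0.996), Pdia3 (0.995) and Fam98a (0.995). These groups share libraries and the separation of cells from tumours, and 291 of 9491 candidate genes had an r above 0.95. A correlation also ignores the size of a change. Group means ran from 90.0 to 144 CPM for Fam98a and from 68.8 to 192 CPM for Gpd1, against 0 to 149 CPM for Ass1. Prom2, a membrane protein of epithelial protrusions, averaged 9.62, 14.8 and 20.9 CPM across KO1, KO2 and KO3 cells against 78.5 CPM in WT cells, and 518, 519.7 and 529 CPM across KO1, KO2 and KO3 tumours against 647 CPM in WT tumours. Pdia3, a disulfide isomerase of the endoplasmic reticulum, averaged 192, 205 and 282 CPM across KO1, KO2 and KO3 cells against 415 CPM in WT cells, and 759, 790.1 and 913 CPM across KO1, KO2 and KO3 tumours against 894 CPM in WT tumours. Unlike Ass1, Prom2, Gpd1 and Fam98a were lower in the mean of every KO tumour group than in WT tumours, Gpd1 barely so in KO2 (191.9 against 192.5 CPM).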

How the data were processed

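Polyadenylated RNA of 8 Myc-CaP cell libraries and 13 tumour libraries was sequenced from a stranded kit, per the labels' protocols. The authors deposited estimated counts per gene in a plain table, used here, and in another scaled by transcript length. Non-whole values made up 7.96% to 10.2% of the gene values in a library. For the members a tolerance of 0.01 was used. The submitters' processing notes name GRCm38, Salmon 1.5.2, STAR and Trim Galore 0.6.7, without settings. GENCODE M21 held 45143 of the 45706 gene IDs and gave positions.

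Estimated counts were rounded. After filterByExpr and TMM scaling, edgeR 4.0.16 in R 4.3.3 tested each gene with the quasi-likelihood F test and Benjamini-Hochberg adjustment over all genes tested, at a threshold of 0.05. KO and WT were compared separately in cells and in tumours, the 3 KO lines by an F test in each setting (without Ass1 in cells, for its few counts), WT tumours with WT cells (without Ass1, and without Arg2 for its few counts), and the settings in a fit of all 21 libraries. The SE of a log2 fold change is its size over the square root of F. Levels are CPM with TMM over all 21 libraries, so a fold change is not the exact ratio of the printed means. Log2 CPM used a prior count of 2. The floor was 3 counts, which was 0.112 to 0.157 CPM in cells and 0.106 to 0.235 CPM in tumours; intervals and floors cover counting error only.

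The members and lists were chosen with earlier results of these data known. All 9 members are named; of each pathway list up to 3 members per direction with the smallest p past the threshold were candidates for naming. Likeness to Ass1 was sought among genes whose mean log2 CPM was 2 or more. Some genes that these rules and the marker lists select are not reported here. Replicates all differed beyond sampling noise (lowest chi-square per degree of freedom 8.39), and the labels do not say that cell libraries came from separate cultures. The alternatives tried were another scaling (RLE), another tool (DESeq2 1.42.0), the unfiltered and the length-scaled counts, the replicate number as a block, a group for each of the 4 lines, counts summed within a line, and leaving out each line and library. WT tumours 3 and 4 were also summed, as a number recurs in their descriptions. Whether they came from the same mouse is not given, so the 4 WT tumours may not be from 4 mice. WT tumours 1 and 4 were left out in an alternative chosen after seeing the data. Simulated counts served to test the main edgeR fit of each comparison. Other steps, among them the alternatives, the counting intervals and the motif search, were not tested in this way. Figures were drawn with matplotlib 3.10.9. Of the tables' columns 0 were left out.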

Additional observations from a re-analysis of the deposited data

Results flagged for a closer look

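Arg1 stood apart in 3 libraries by the gap to the nearest library of its group, divided by the range of the group: KO1 cells replicate 2 among the KO cells, on the low side (0.772), WT tumour replicate 1 among the WT tumours (0.953) and KO3 tumour replicate 1 among the KO tumours (0.668), both on the high side. These were 3 of 27 tests of groups of 4, 6 or 9 libraries, and chance flags about 1 in 20 groups. The macrophage and neutrophil marker sums of these tumours are given with Arg1 above.

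The KO lines differed in cells for 4 of the 7 members given a test by edgeR's F test. The adjusted p were 0.00578 for Asl, 0.0109 for Oat, 0.0161 for Sms and 0.00106 for Sat1. KO3 was the highest KO line for Asl, Oat and Sat1 and the lowest for Sms. With counts scaled by transcript length Asl and Sms did not pass.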

How the results depend on the processing

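Of the values of single genes under the alternatives, 935 kept their direction and their side of the threshold or moved by less than 1 SD, 25 lost it, 15 gained it, 14 moved and 28 changed sign; the causes were not tested. Arg2 passed in KO tumours under all alternatives run but libraries summed per line. For KO against WT in cells 1808 genes and 3 members passed; the counts were 4780 and 6 with the 4 lines as groups, 38 and 0 summed per line, 4315 and 6 without line KO3, and 1162 and 1137 genes without KO1 and KO2. For KO against WT in tumours 518 genes and 1 member passed; the counts were 1088 and 2 by DESeq2, 0 and 0 summed per line, and 332 genes without a filter, 1118 with the lines as groups, 297 and 123 without KO1 and KO2, 246 with WT tumours 3 and 4 summed and 89 without WT tumours 1 and 4. For the lines in cells 3713 genes and 4 members passed, and 2271 and 2 on length-scaled counts. For the lines in tumours 427 genes and 0 members passed, 1263 and 1 by DESeq2, and 1262 genes without WT tumours 1 and 4. The Ass1 difference between settings, 5.87, was 5.39, 5.45 and 8.12 without KO1, KO2 and KO3.

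Leaving out 1 library at a time gave 378 to 2221 genes and 1 to 3 members for KO against WT in cells, lowest without WT replicate 1, and 154 to 594 genes and 1 to 2 members in tumours, lowest without WT replicate 2. It gave 2094 to 4247 genes and 2 to 5 members for lines in cells, the genes lowest without KO3 replicate 2, and 128 to 1095 genes for lines in tumours, lowest without KO1 replicate 2 and highest without WT replicate 1. It gave 3853 to 8115 genes and 1 to 6 members for WT tumours against cells, the genes lowest without WT cells replicate 2, and 5.57 to 6.61 for the Ass1 difference. Values near 0 changed sign. Asl in KO cells was -0.017 on length-scaled counts and -0.092 without KO3, and -0.034 to 0.046 without single libraries. Odc1 in KO tumours was -0.0091 with RLE, -0.010 by DESeq2, -0.0087 with the lines as groups, -0.0055 summed per line, -0.030 and -0.015 without KO1 and KO2, -0.029 with WT tumours 3 and 4 summed, -0.11 without WT tumours 1 and 4, and -0.053 to 0.065 without single libraries. Sat1 in KO tumours was -0.050 without KO2 and -0.013 to 0.10 without single libraries. Arg1 in KO tumours was 0.14 without WT tumours 1 and 4 and -1.18 to 0.20 without single libraries. Srm, KO3 minus KO1 in tumours, was -0.040 to 0.24 without single libraries.

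Same-numbered samples did not deviate together. The correlations of 12 pairs in cells were -0.0448 to 0.105. Those of 18 pairs in tumours were -0.378 to 0.140, 3 of them over 0.1. With 2 libraries per line in cells, the pairs numbered 1 and 2 necessarily gave the same value. The 2 cell values over 0.1 thus came from the same pair of lines, KO1 and KO3. With the replicate number as a block 98 genes passed for KO against WT in tumours, Arg2 among them, and Odc1 was at -0.039; in WT tumours against cells Arg1 passed and Srm did not. Depth limits Ass1 in KO cells and Arg2 in all cells, which lay near the floor of 3 counts. Where a library left out leaves 1 WT cell library, it was assumed to vary like the others.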
